A study of Homo sapiens with 24 samples.

Results

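The signal path of interleukin-4, interleukin-13 and interleukin-6 was examined at the level of its kinase and transcription factor genes: the Janus kinases JAK1, JAK2, JAK3 and TYK2, and the signal transducers STAT2, STAT3, STAT5A, STAT5B and STAT6. These 9 genes were taken by symbol, as the first entry of each, from a count table of 36468 entries, and all 9 were among the 29377 entries with enough reads to be tested. RNA was sequenced from sensory neuron cultures differentiated from H9WAO9, a human embryonic stem cell line. The 24 libraries came from 6 batches of differentiation, each giving 1 library per treatment: a vehicle of serum albumin in PBS, TGF-β at 2 ng/ml, IL-4 at 10 ng/ml together with IL-13 at 3 ng/ml (IL-4 + IL-13), or IL-6. Exposure lasted 5 days for the first 3 of these, and the dose and time of IL-6 are not given in the sources used here. All groups share the same cell line and differentiation protocol, no genes were altered, and libraries were made from whole cultures without sorting, so neurons and other cells were sequenced together.

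Cytokine receptors of this class have no kinase of their own. A bound ligand brings receptor chains together, the JAKs attached to them phosphorylate the receptor and each other, and STAT proteins that dock there are phosphorylated, pair up and move to the nucleus as transcription factors. IL-4 and IL-13 act through IL4R, paired with IL2RG or IL13RA1, and chiefly through STAT6. IL-6 acts through IL6R and the shared chain IL6ST, and chiefly through STAT3. STAT2 works mainly with IRF9 in the interferon response, and STAT5A and STAT5B serve hormone and growth factor receptors as well as cytokines. TGF-β uses receptor kinases of its own and SMAD proteins, and so stands outside this path. Sensory neurons are known to carry IL-4 and IL-6 family receptors, and JAK1 in them is known for its part in itch. The activity of JAK and STAT proteins is set by phosphorylation, which a transcript count does not measure.

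The libraries held between 33342682 and 39817784 counts. The neuronal marker list (10 of 10 tested, TUBB3 and STMN2 among them) summed to 1255 to 6014 CPM (read counts scaled to the library size with edgeR's TMM factors), and the fibroblast and mesenchyme list (9 of 9 tested) to 2687 to 13465 CPM, so neurons were present and were not the only cells. Of the pluripotency list, POU5F1 had at most 1 count and NANOG at most 5 counts in any library. Its other genes were counted in every library, LIN28A at 31 to 121 counts and DPPA4 at 236 to 1832 counts. Fewer cells of a type and less RNA per cell cannot be told apart in such bulk samples. Libraries of a batch deviated from their group means together (median correlation over 20962 genes 0.593 for 36 pairs within a batch and -0.165 for 240 pairs between batches). The library labelled vehicle of batch 2 stood apart: its mean correlation was 0.03 with the treated libraries of its own batch and 0.449 with those of batch 4. For the library labelled vehicle of batch 4 these values were 0.156 with its own batch and 0.418 with batch 2. Within batch 4, the TGF-β library correlated at 0.583 with batch 3 and at 0.409 with its own batch, and the IL-4 + IL-13 library at 0.539 and 0.331. The labels were kept as given. Whether the vehicle libraries of batches 2 and 4 were exchanged was not tested, and every within-batch difference from vehicle in these batches would change if they were, so fold changes against vehicle are also given without them.

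The 9 genes lie on 5 chromosomes of GRCh38.p14. JAK1 is at chr1:64833229-65067746 on the minus strand, JAK2 at chr9:4984390-5129948 on the plus strand, and JAK3 (chr19:17824782-17847982) and TYK2 (chr19:10350533-10380572) both on the minus strand of chromosome 19. STAT2 (chr12:56341597-56360107) and STAT6 (chr12:57095408-57111362) lie 735.3 kb apart on the minus strand of chromosome 12. The other three STAT genes form a cluster on chromosome 17, with STAT5B at chr17:42199177-42288370 on the minus strand, STAT5A at chr17:42287439-42311943 on the plus strand and STAT3 at chr17:42313324-42388442 on the minus strand, 1.38 kb beyond STAT5A. STAT5A and STAT5B overlap head to head by 1087 bases in GENCODE, and 507 of the 50-base words of the STAT5A transcript (13.63%) are also in STAT5B, the 1 pair of 36 among these genes that shares any. How the counting treated reads that fit both genes, or reads from the opposite strand, is not given in the sources used here, so the split of counts between STAT5A and STAT5B is uncertain. JAK2 is uncertain in the same way, since 3379 bases of its exons lie within the GENCODE span of INSL6 on the opposite strand.

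All 9 genes were detected in every library, at levels that spanned more than an order of magnitude. Per kilobase of the canonical transcript, the mean level in vehicle cultures was 67.8 ± 21.8 RPKM (SD, n = 6) for STAT3 and 59.6 ± 13.1 RPKM for JAK1, the kinase shared by the IL-4, IL-13, IL-6 and interferon receptors. STAT6, the main transducer of IL-4 and IL-13, and STAT2 followed at 20.3 ± 4.65 and 19.3 ± 3.93 RPKM. TYK2, which partners JAK1 on IL13RA1 and interferon receptors, was at 10.6 ± 2.16 RPKM and STAT5B at 8.42 ± 1.07 RPKM. JAK2, STAT5A and JAK3 were lowest, at 2.38 ± 0.638, 1.37 ± 0.335 and 1.00 ± 0.0956 RPKM. JAK3, which pairs with IL2RG and is best known from lymphocytes, was still covered by 116 to 244 counts in each library, and STAT5A by 65 to 278 counts. Neighbours in this order did not all differ: in vehicle cultures STAT3 was above JAK1, STAT6 above STAT2 and TYK2 above STAT5B in 4 of 6 batches each, with overlapping ranges. JAK2 was above STAT5A, and STAT5A above JAK3, in 6 of 6 vehicle cultures. The order was the same when the lengths of all annotated exons replaced those of the canonical transcripts.

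Whether any cytokine changed these transcripts was asked first across all treatments at once. None of the 9 genes passed edgeR's quasi-likelihood F test of the 3 treatment terms at a Benjamini-Hochberg adjusted p under 0.05, and none had an unadjusted p under 0.05. Of all genes tested 1.81% passed, and 9.62% had an unadjusted p under 0.05. The smallest value belonged to STAT3 (F 2.91, adjusted p = 0.562). DESeq2's likelihood ratio test passed 0 of the 9 genes as well, with 1 at an unadjusted p under 0.05. The plot of levels by group shows that the 4 groups overlapped for every gene.

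**Figure D1:**
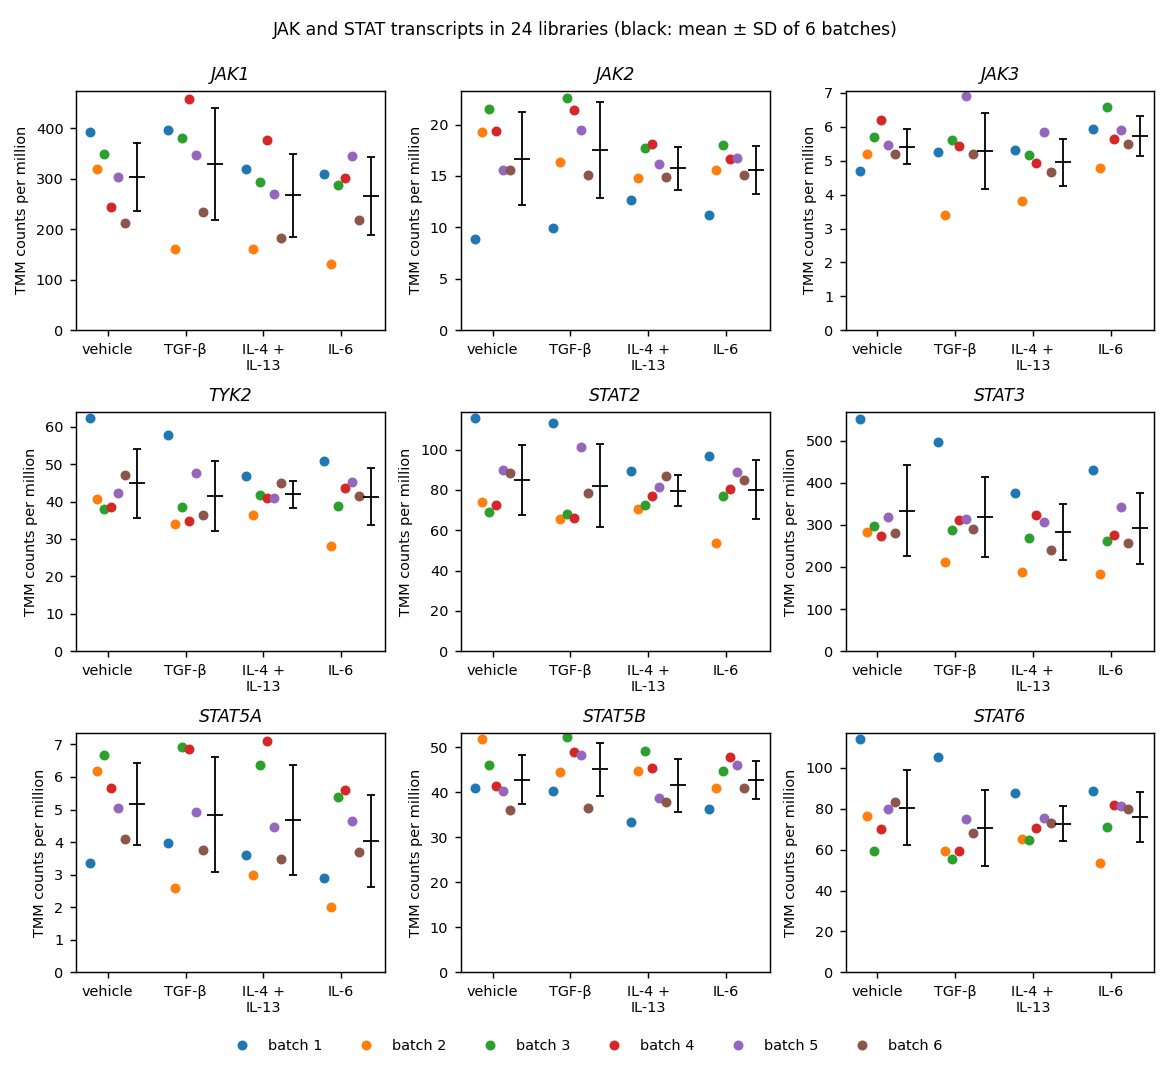
TMM-scaled CPM (vertical axes, from 0) of the 9 JAK and STAT genes in the 4 treatment groups. Each point is 1 library coloured by its batch, and black bars are the mean ± SD of 6 batches. The points of the 4 groups overlap in every panel, and batch 1 lies highest for STAT3 and STAT6 and lowest for JAK2.

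Each cytokine was then set against vehicle in the model with batch. At an adjusted p under 0.05, edgeR passed 0 of the 9 genes for TGF-β (0.347% of all genes passed), 0 for IL-4 + IL-13 (0.633% passed) and 0 for IL-6 (0% passed), and DESeq2 also passed 0 in each. At an unadjusted p under 0.05, edgeR and DESeq2 each had 1, 1 and 2 of the 9 genes, all lower than vehicle. Of all genes 7.29%, 9.1% and 4.77% were at that level by edgeR, and 4.87%, 4.68% and 2.44% were at that level and lower. The precision of this result was given by the intervals: of the 27 log2 fold changes, all had 95% intervals within 1 log2 unit of no change and 22 within 0.5. The widest reach downward was a fold of 0.578 (STAT5A under IL-6) and the widest upward 1.30 (JAK1 under TGF-β). Of the 27 estimates 22 were negative, but the 3 comparisons share the same 6 vehicle libraries.

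**Figure D2:**
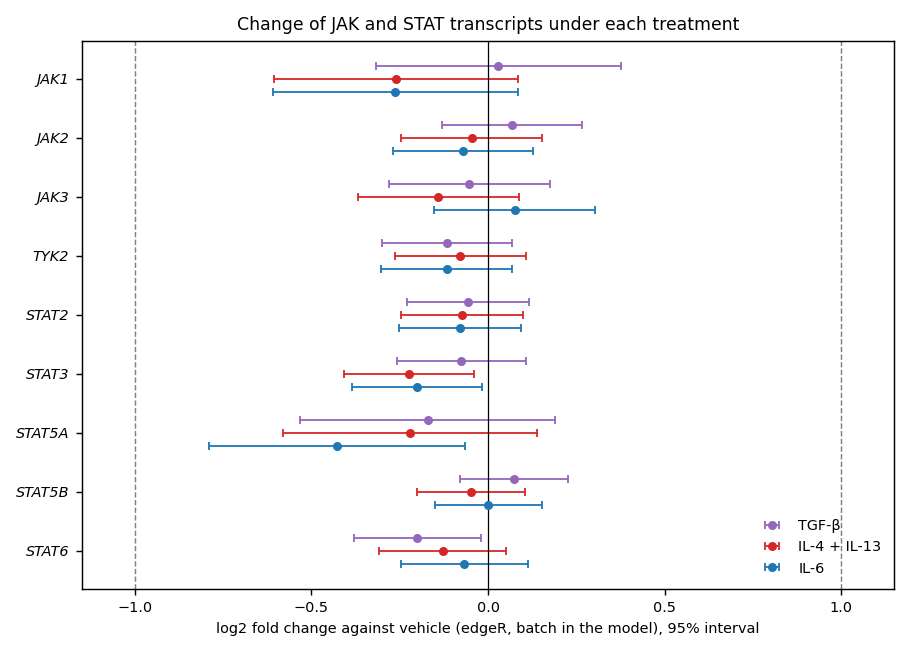
Log2 fold change against vehicle (horizontal axis) of each gene under each of the 3 cytokine treatments, from edgeR with batch in the model, with 95% intervals. Dashed lines mark 1 log2 unit either way, and all 27 intervals lie between them.

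Among the kinases, JAK1 varied most between cultures. It ranged over 213, 311 and 393 CPM (lowest, median and highest of 6 batches) in vehicle, 161, 364 and 458 CPM under TGF-β, 161, 281 and 377 CPM under IL-4 + IL-13, and 132, 294 and 346 CPM under IL-6. All groups overlapped, and the lowest treated culture was that of batch 2 in each treatment. The log2 fold change was 0.03 (SE 0.16, adjusted p = 0.996) for TGF-β, -0.26 (SE 0.16, adjusted p = 0.671) for IL-4 + IL-13 and -0.26 (SE 0.16, adjusted p = 0.850) for IL-6. Batches 2 and 4 moved in opposite ways: within batch 2 the difference from vehicle was -0.99, -0.99 and -1.27 for the 3 treatments, and within batch 4 it was 0.91, 0.63 and 0.30. These are the batches whose vehicle libraries stood apart. Without the vehicle library of batch 2 the fold changes were 0.24, -0.03 and -0.05, and without those of both batches 0.12, -0.16 and -0.17, with no adjusted p under 0.05. The value of 0.24 under TGF-β had an unadjusted p under 0.05. Without the whole of batch 4 the fold changes were -0.12 for TGF-β and -0.41 for IL-4 + IL-13, and neither passed.

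JAK1 was lower under IL-4 + IL-13 than under TGF-β in 6 of 6 batches, with differences of log2 CPM between -0.28 and -0.38 in 5 of them and of -0.0013 in batch 2. Over all libraries the log2 fold change was -0.29 (SE 0.16, adjusted p = 0.540) and did not pass, where 2.98% of all genes passed. Without the vehicle libraries of batches 2 and 4, an alternative chosen after the data were seen, it was -0.28 (SE 0.08, adjusted p = 0.0398) and passed, as did 1676 genes in all against 874 with every library. With only the 12 libraries compared, which hold no vehicle, it was -0.28 (SE 0.06, adjusted p = 0.0524), and without batch 2 it was -0.33 (SE 0.11, adjusted p = 0.131), neither of which passed. JAK1 was likewise higher under TGF-β than under IL-6 in 6 of 6 batches (log2 fold change 0.29, SE 0.16, adjusted p = 0.760). None of the 9 genes passed in the comparisons between treatments with all libraries, and none had an unadjusted p under 0.05 by edgeR in any of the 3 (12.2% of all genes between IL-4 + IL-13 and TGF-β, 4.57% between IL-4 + IL-13 and IL-6, and 7.5% between TGF-β and IL-6). Of all genes, 0.456% passed between IL-4 + IL-13 and IL-6 and 0.0783% between TGF-β and IL-6. DESeq2 had 1 of the 9 genes at an unadjusted p under 0.05 between IL-4 + IL-13 and IL-6 and 0 in the other two.

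JAK2, the partner of JAK1 on several receptors of the IL-6 family and the kinase of hormone receptors, ranged over 8.89, 17.4 and 21.5 CPM in vehicle and 9.96, 17.9 and 22.6 CPM under TGF-β. Under IL-4 + IL-13 it ranged over 12.6, 15.5 and 18.1 CPM, and under IL-6 over 11.2, 16.1 and 18.04 CPM. Batch 1 was the lowest in all 4 groups. The log2 fold changes were between -0.07 and 0.07, each with an SE of 0.09 or 0.10, and without the vehicle libraries of batches 2 and 4 they were 0.16, 0.041 and 0.016. Within batch 1 the log2 differences from vehicle were 0.16, 0.51 and 0.34 for the 3 treatments in that order, and within batch 2 they were -0.23, -0.38 and -0.30.

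JAK3 ranged over 4.68, 5.33 and 6.20 CPM in vehicle, 3.40, 5.35 and 6.90 CPM under TGF-β, 3.80, 5.05 and 5.85 CPM under IL-4 + IL-13 and 4.78, 5.77 and 6.60 CPM under IL-6. Its log2 fold changes against vehicle under TGF-β, then IL-4 + IL-13, then IL-6 were -0.05, -0.14 and 0.08, each with an SE of 0.11. Without the vehicle libraries of batches 2 and 4 they were 0.091, 0.0038 and 0.22, none with an adjusted p under 0.05. JAK3 was lower under IL-4 + IL-13 than under IL-6 in 6 of 6 batches, and the fold change of -0.22 (SE 0.11, adjusted p = 1) did not pass. TYK2 ranged over 38.1, 41.5 and 62.3 CPM in vehicle, 33.97, 37.4 and 57.9 CPM under TGF-β, 36.4, 41.4 and 46.9 CPM under IL-4 + IL-13 and 28.1, 42.6 and 50.8 CPM under IL-6. Its fold changes against vehicle were -0.12, -0.08 and -0.12, each with an SE of 0.09, and -0.09, -0.06 and -0.10 without those libraries. The groups overlapped for both kinases.

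STAT6 ranged over 59.6, 78.1 and 114 CPM in vehicle, 55.6, 63.8 and 105 CPM under TGF-β, 64.6, 71.9 and 87.6 CPM under IL-4 + IL-13 and 53.6, 80.7 and 88.5 CPM under IL-6. Batch 1 was the highest in each group. Under its own cytokines, IL-4 + IL-13, the log2 fold change was -0.13 (SE 0.09, 95% interval -0.31 to 0.05, adjusted p = 0.690), lower in 4 of 6 batches. Under TGF-β it was lower in 6 of 6 batches, with within-batch differences of -0.09 to -0.36 and a log2 fold change of -0.20 (SE 0.09, adjusted p = 0.587), which did not pass. Its unadjusted p was under 0.05, and no longer so without the vehicle library of batch 2 (-0.16) or those of batches 2 and 4 (-0.17). Without both, the values for IL-4 + IL-13 and IL-6 were -0.10 and -0.04.

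STAT3 ranged over 273, 290.0 and 550.3 CPM in vehicle, 211, 301 and 495 CPM under TGF-β, 187, 287 and 376 CPM under IL-4 + IL-13 and 184, 269 and 429 CPM under IL-6. The lowest treated culture was batch 2 and the highest batch 1 in each treatment. Under IL-6, its own cytokine, the log2 fold change was -0.20 (SE 0.09, 95% interval -0.38 to -0.02, adjusted p = 0.850), lower in 4 of 6 batches. Under IL-4 + IL-13 it was -0.22 (SE 0.09, adjusted p = 0.425), lower in 5 of 6 batches. Neither passed, though both had an unadjusted p under 0.05. Without the vehicle library of batch 2 they were -0.12 and -0.14, past that level no longer, and without those of batches 2 and 4 they were -0.17 and -0.20, both at that level again. The value for IL-4 + IL-13 also lost that level without batch 1 or 2, with only the 12 libraries compared and without the batch term. Without batch 4 this value was more negative, at -0.31, and did not pass. The most negative within-batch differences were in batches 1 and 2, at -0.36 and -0.62 for IL-6 and -0.55 and -0.60 for IL-4 + IL-13.

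STAT5A ranged over 3.36, 5.36 and 6.68 CPM in vehicle, 2.58, 4.45 and 6.93 CPM under TGF-β, 2.99, 4.03 and 7.10 CPM under IL-4 + IL-13 and 2.00, 4.17 and 5.60 CPM under IL-6. It was below vehicle under IL-6 in 6 of 6 batches, with a log2 fold change of -0.43 (SE 0.17, adjusted p = 0.850), the largest of the 27 values, and it did not pass. The differences ranged from -0.02 in batch 4 to -1.598 in batch 2, where STAT5A was at 6.18 CPM in vehicle and 2.00 CPM under IL-6. Its unadjusted p was under 0.05 with all libraries and without the vehicle libraries of batches 2 and 4 (-0.25), but not without batch 2 (-0.16) or its vehicle library alone (-0.19). That level was also lost without batch 3 (-0.44), with only the 12 libraries compared (-0.39) and without the batch term (-0.36). STAT3 under IL-6 lost it in these 3 settings and without batch 1, 2 or 6. Without batch 4, STAT5A under IL-6 was more negative, at -0.50, and did not pass.

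STAT5B was the steadiest gene, with a 1.57-fold span from the lowest to the highest of 24 libraries against 3.47-fold for JAK1. It ranged over 36.1, 41.1 and 51.8 CPM in vehicle, 36.5, 46.4 and 52.3 CPM under TGF-β, 33.3, 41.8 and 49.3 CPM under IL-4 + IL-13 and 36.2, 42.8 and 47.9 CPM under IL-6. Its log2 fold changes were 0.07, -0.05 and 0.0010, each with an SE of 0.07, and 0.10, -0.02 and 0.03 without the vehicle libraries of batches 2 and 4. The last changed sign under other settings. STAT2 ranged over 69.2, 81.1 and 116 CPM in vehicle, 65.4, 73.4 and 113 CPM under TGF-β, 70.5, 79.2 and 89.4 CPM under IL-4 + IL-13 and 53.7, 82.6 and 96.8 CPM under IL-6. Its fold changes were -0.06, -0.07 and -0.08, each with an SE of 0.08, and -0.04, -0.05 and -0.06 without those libraries. The groups overlapped for both genes.

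**Figure D3:**
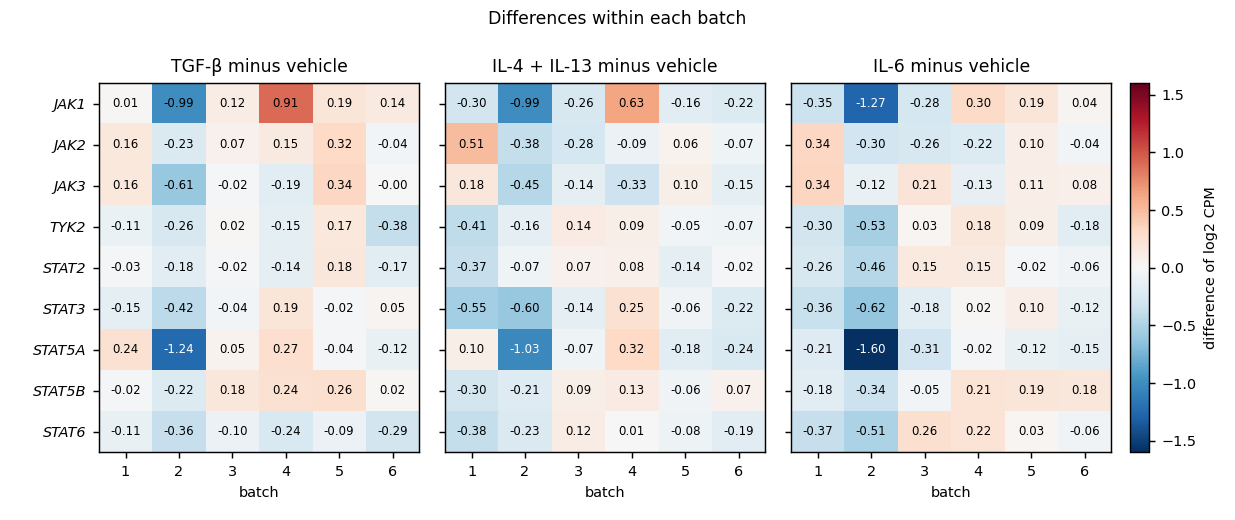
Difference of log2 CPM between each treated library and the vehicle library of its batch, for the 9 genes (rows) and 6 batches (columns), with red higher and blue lower than vehicle. Batch 2 is blue for every gene in every treatment, down to -1.598 for STAT5A under IL-6, while JAK1 in batch 4 is red in all 3.

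The batch of differentiation, in contrast to the treatment, separated the levels of all 9 genes. Each passed edgeR's F test of the batch terms, as did 56.8% of all genes. STAT3 had the largest F (adjusted p = 1.8e-06, above 92.8% of genes), followed by JAK2 (F 13.8) and STAT2 (F 11.6), and JAK3 had the smallest (F 3.26, adjusted p = 0.0479). JAK3 no longer passed without the filter on low counts or without batch 2, 3, 5 or 6 (adjusted p 0.0608 to 0.426), TYK2 without batch 1 (adjusted p = 0.0757) or STAT5B without batch 3 (adjusted p = 0.0716). The 4 libraries of a batch come from 1 differentiation, so this test describes these 6 differentiations.

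Batch 1 lay outside the range of all others for 3 genes. STAT3 was at 376 to 550.3 CPM in its 4 libraries and at 184 to 341 CPM in the other 20, with a ratio of means of 1.68. STAT6 was at 87.6 to 114 CPM against 53.6 to 83.2 CPM (ratio 1.41), and JAK2 was at 8.89 to 12.6 CPM against 14.8 to 22.6 CPM (ratio 0.610). No other batch of any of the 9 genes lay wholly outside the rest. The neuronal marker list also moved with this batch: it summed to 1255 to 2185 CPM in batch 1 and to 2598 to 6014 CPM in the others. The leukocyte list (5 of 8 tested) summed to 40.5 to 68.6 CPM in batch 1 and to 13.7 to 46.5 CPM in the others, with AIF1 and CD3E at 0 counts in every library. The fibroblast and mesenchyme list summed to 4832 to 13465 CPM in batch 1 and to 2687 to 8962 CPM elsewhere, with overlapping ranges. The epithelial list (5 of 5 tested) summed to 544 to 1018 CPM in batch 1 against 222 to 417 CPM elsewhere. Their part in the levels of STAT3, STAT6 and JAK2 was not tested.

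**Figure D4:**
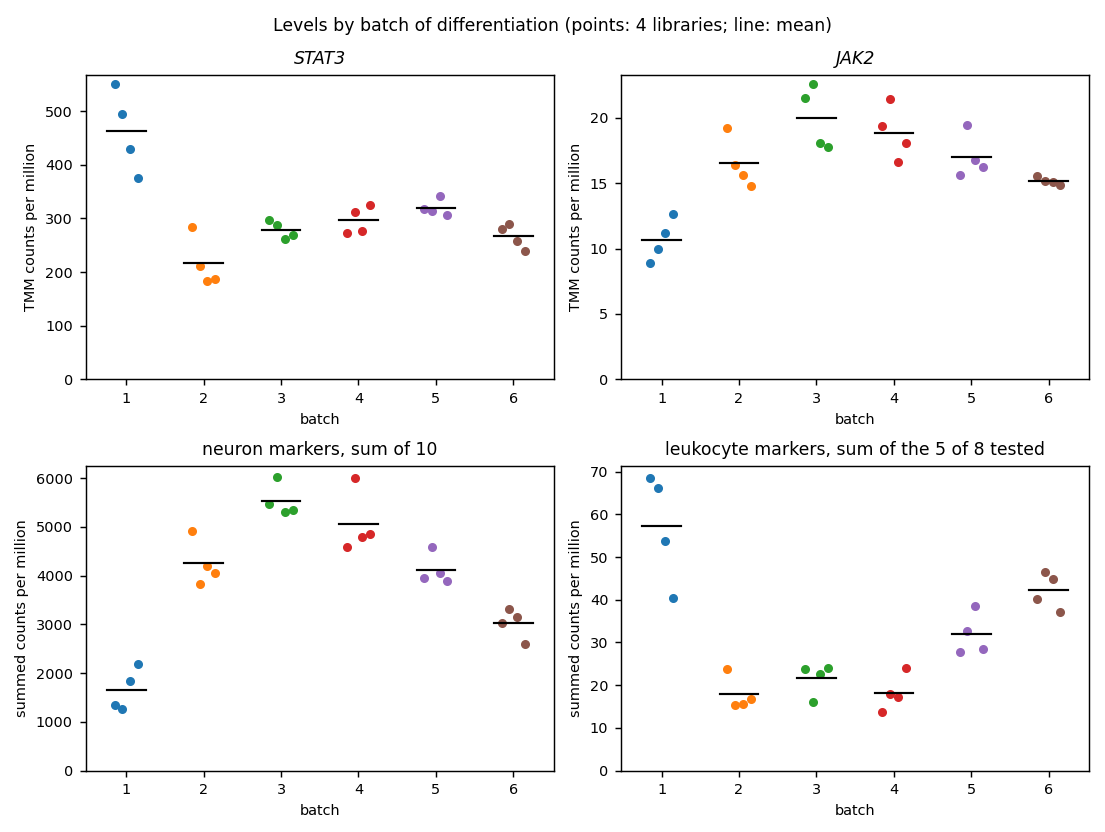
TMM-scaled CPM of STAT3 and JAK2 (upper panels) and summed CPM of the neuronal and leukocyte marker lists (lower panels) by batch of differentiation. Each point is 1 of 4 libraries and each line their mean. Batch 1 is above all others for STAT3 (376 to 550.3 CPM) and below all others for JAK2 and the neuronal markers.

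STAT5A and STAT5B did not keep a fixed ratio across batches. STAT5A took a median of 5.87% of their joint counts in batch 2 and 12.2% in batch 4, with 8.28% to 11.6% in the other four. In batch 2 the vehicle library was at 10.7%, among the values of other batches, and the 3 treated libraries at 4.67% to 6.26%. Over treated libraries alone the medians were 5.47% in batch 2 and 12.3% in batch 4. After removing batch means, the transcripts whose log2 CPM followed STAT3 most closely over the 24 libraries were MYH14 (Pearson r = 0.942), a non-muscle myosin, FAM222B (r = 0.934) and SSH1 (r = 0.933), a cofilin phosphatase, of 12559 genes compared. These correlations are descriptive, and their points share libraries and depth.

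The genes around the kinases and STATs were described by lists of ligands, receptor subunits, inhibitors and target genes. Receptors for all 3 interleukins were expressed. IL13RA1 had a mean of 162 CPM and IL4R of 43.98 CPM in vehicle, and under IL-4 + IL-13 their log2 fold changes were -0.28 (SE 0.10, adjusted p = 0.383) and -0.41 (SE 0.22, adjusted p = 0.610). IL6ST had a mean of 212 CPM and IL6R of 5.90 CPM in vehicle, with fold changes of -0.19 (SE 0.16, adjusted p = 0.860) and -0.44 (SE 0.31, adjusted p = 0.850) under IL-6. These 4 receptors were named for their place in the path, with their values known, and none passed. IL2RG, the partner chain of IL4R in blood cells, had a mean of 0.115 CPM in vehicle.

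Under IL-4 + IL-13, 7 of the 16 tested genes of the STAT6 target list rose and 0 fell (0.371% of all genes rose and 0.262% fell), with a list median of 1.41 on the log2 scale against -0.01 over all genes and -0.13 over the 9 JAK and STAT genes. ALOX15, a lipoxygenase known to respond to IL-4 and IL-13, went from 0 to 21 counts per vehicle library to between 4679 and 16617 counts (log2 fold change 10.58, SE 0.43, adjusted p = 1.3e-10). CCL26, the chemokine eotaxin-3, went from 0 to 5 counts to between 223 and 2047 counts (7.86, SE 0.60, adjusted p = 1.6e-06). IL13RA2, the decoy receptor of IL-13, rose by 1.31 (SE 0.17, adjusted p = 0.00077) and was higher in 6 of 6 batches. SERPINB4 (2.98), SERPINB3 (2.60) and VCAM1 (1.93) rose too. SERPINB4 passed in 12, VCAM1 in 8 and SERPINB3 in 7 of 13 alternatives. The count of 7 was 5 without batch 3, 5 or 6, 4 with only the 12 libraries compared and 9 without the vehicle libraries of batches 2 and 4. SERPINB4 and SERPINB3 are near-identical neighbours whose reads may be shared, so their values are uncertain. The list was written with earlier results of these data known, so its count is not independent evidence of its direction. The leukocyte list summed to 16.7 to 40.5 CPM under IL-4 + IL-13 and 13.7 to 68.6 CPM in vehicle, the endothelial list to 28.6 to 159 and 24.7 to 114 CPM, and the mesenchymal list to 2687 to 6341 and 3241 to 10575 CPM. Their part in these rises was not tested.

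CISH, a SOCS family inhibitor that STAT5 is known to induce and that restrains cytokine receptor signalling, was the 1 gene of 18 in the inhibitor list to rise with all libraries, where 0.371% of all genes rose. It had 0.786, 1.33 and 1.92 CPM in vehicle (lowest, median and highest), 0.733, 1.66 and 4.34 CPM under TGF-β, 0.979, 1.52 and 4.19 CPM under IL-6, and 11.3, 27.8 and 32.6 CPM under IL-4 + IL-13. The IL-4 + IL-13 libraries lay above all 18 others. The log2 fold change against vehicle was 4.40 (SE 0.38, adjusted p = 7.1e-06), higher in 6 of 6 batches, and CISH, ALOX15 and CCL26 passed under each of the 13 alternatives run, the replicates left out included. SOCS1, another inhibitor known to respond to IL-4 and named here with its value known, had a log2 fold change of 0.58 (adjusted p = 0.249) and did not pass with all libraries. It passed without batch 2 (0.80, adjusted p = 0.0063), without the vehicle library of batch 2 (0.82, adjusted p = 0.0023) and without those of batches 2 and 4 (0.80, adjusted p = 0.0091). In the STAT5 target list 2 of 9 tested genes rose, against the same 0.371% of all genes, CISH again and the growth factor IGF1 (1.41, adjusted p = 0.0255), the second lost in 7 of the 13 alternatives.

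The promoter letters of CISH are shown beside those of STAT3 because CISH rose under IL-4 + IL-13 and STAT3, with the smallest p of the 9 genes, did not pass. STAT dimers are known to prefer TTCNNNGAA, and STAT6 also TTCNNNNGAA, both of which read the same on both strands. The 250 bases before the start in RefSeq's promoter table, which takes 1 transcript per gene, were searched, and matches are in capitals. For STAT5B (chr17:42276392-42276641) and STAT6 (chr12:57110290-57110539) that start, and so the window, lies inside the gene span given above. Both sequences are 5′ to 3′ on the minus strand of GRCh38.p14, at chr3:50611775-50612024 for CISH and chr17:42388443-42388692 for STAT3.
CISH: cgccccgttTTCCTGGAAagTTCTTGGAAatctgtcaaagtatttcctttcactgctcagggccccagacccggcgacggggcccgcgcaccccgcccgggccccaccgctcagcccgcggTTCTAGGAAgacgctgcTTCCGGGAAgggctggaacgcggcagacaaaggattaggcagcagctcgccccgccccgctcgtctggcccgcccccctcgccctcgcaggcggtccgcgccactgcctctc
STAT3: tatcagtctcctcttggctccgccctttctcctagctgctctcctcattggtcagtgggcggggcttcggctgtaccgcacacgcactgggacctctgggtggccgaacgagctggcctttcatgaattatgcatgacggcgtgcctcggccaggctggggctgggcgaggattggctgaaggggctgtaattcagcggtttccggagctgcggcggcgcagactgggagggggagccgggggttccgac
CISH held 4 matches of TTCNNNGAA, beginning 241, 230, 129 and 112 bases before the start, and STAT3 held none of either motif. Of 27305 RefSeq promoters, 6.78% held TTCNNNGAA, 5.35% held TTCNNNNGAA and 11.6% held either. Of the 9 JAK and STAT genes, all matched in the table, 1 held a match. It was TTCNNNNGAA in STAT5A, beginning 229 bases before the start, shown here with its flanks at chr17:42287200-42287229 on the plus strand.
STAT5A: ttttttttttTTCCTCTGAAgttaaaagaa
Of the STAT6 target list, 14 of 20 genes had a promoter in the table and 3 held a match (CISH, POSTN and HSD3B1). Among the 7 targets that rose under IL-4 + IL-13 by edgeR with all libraries, only CISH held a match. POSTN, named with its values known, was not among these 7 but passed in some alternatives, higher than vehicle. These were DESeq2 (1.51, adjusted p = 0.0320) and edgeR without batch 2 (2.07, adjusted p = 0.0059). It also passed by edgeR without the vehicle library of batch 2 (2.02, adjusted p = 0.0156) and without those of batches 2 and 4 (1.79, adjusted p = 0.0329). CCL26, SERPINB3, SERPINB4 and VCAM1 held none, and ALOX15 and IL13RA2 had no promoter in the table. A match is a description of the letters, and binding was not measured.

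Of 9 tested ligands 3 fell and 0 rose under IL-4 + IL-13, where 0.262% of all genes fell. All 3 are of the IL-6 family, to which most genes of the ligand list belong. LIF had a log2 fold change of -1.29 (SE 0.24, adjusted p = 0.0118, lower in 6 of 6 batches), IL11 of -0.74 (adjusted p = 0.0497, lower in 5 of 6) and CLCF1 of -0.69 (adjusted p = 0.0276, lower in 6 of 6). LIF ranged over 30.5, 49.97 and 193 CPM in vehicle and 15.9, 22.8 and 35.8 CPM under IL-4 + IL-13, with overlapping ranges. All 3 calls were lost in some alternatives: LIF and CLCF1 passed in 7 of 13 and IL11 in 3 of 13. In the STAT3 target list 1 of 23 tested genes fell, the acute-phase protease inhibitor SERPINA3 (-1.23, adjusted p = 0.0040), which passed in 11 of 13 alternatives. DESeq2 passed 3 of these genes, SERPINA3 with CEBPD (0.64) and SAA1 (2.90) higher, the last 2 named with their values known. SAA1 has a near-identical neighbour, SAA2, so its value is uncertain. Of 20 interferon-stimulated genes, which STAT2 serves, 0 passed under IL-4 + IL-13 by edgeR (4 at an unadjusted p under 0.05, against 9.1% of all genes) and 2 by DESeq2. Of 23 receptor subunits 1 passed by edgeR, IL13RA2, and 2 by DESeq2, the other being the prolactin receptor PRLR (-0.50).

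**Figure D5:**
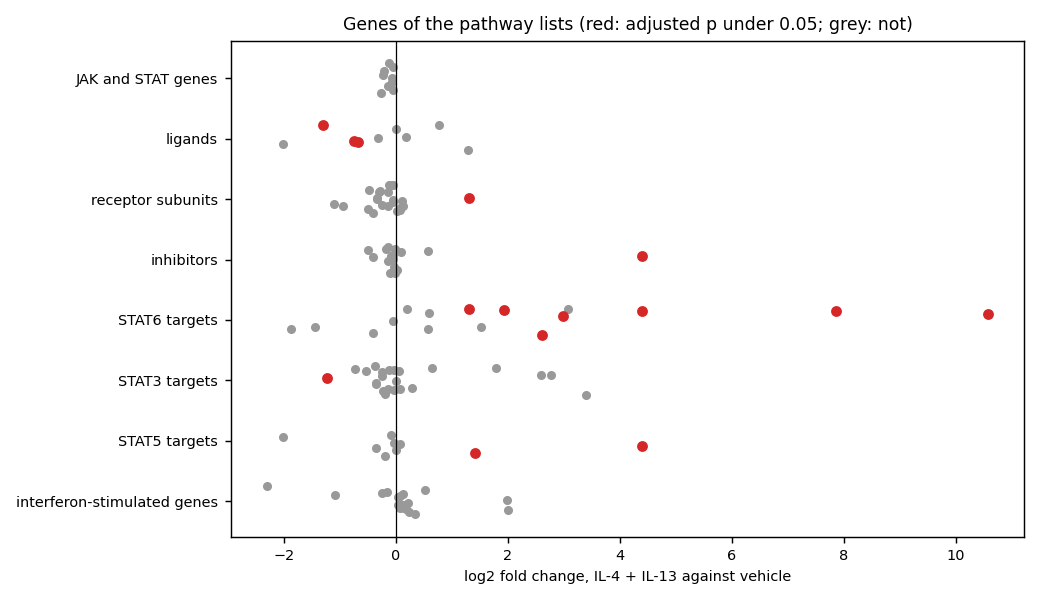
Log2 fold change of IL-4 + IL-13 against vehicle (horizontal axis) for each tested gene of the JAK and STAT group and 7 pathway lists, with red for an adjusted p under 0.05 and grey for the rest. The 9 JAK and STAT genes lie close to 0, while 7 STAT6 targets, CISH among them, lie to the right in red. CISH is drawn in 3 lists and IL13RA2 in 2.

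Under TGF-β, IL11, a cytokine of the IL-6 family, rose by 1.07 (adjusted p = 0.0122), the 1 ligand of 9 to pass (0.0817% of all genes rose and 0.266% fell). Of 20 interferon-stimulated genes 2 fell and 0 rose, IFIT1 (-0.77, adjusted p = 0.0290) and IFIT3 (-0.76, adjusted p = 0.0482). IFIT1 passed in 5 of 13 alternatives, IFIT3 in 2 of 13 and IL11 in 9 of 13. No gene of the receptor, inhibitor or STAT3, STAT5 and STAT6 target lists passed by edgeR, with 3, 2, 5, 1 and 0 genes at an unadjusted p under 0.05 in that order (7.29% of all genes), while DESeq2 passed 2 receptor subunits and 1 STAT3 target. That target was CRP, at an extreme log2 fold change of 16.9. DESeq2 also passed the interferon-stimulated genes IFIT1, IFIT2, IFIT3 and OAS1, all lower. CRP, IFIT2 and OAS1 are named with their values known.

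Under IL-6, no gene of any list passed by edgeR or DESeq2. At an unadjusted p under 0.05 there were 3 receptor subunits, all lower, and 2 interferon-stimulated genes, both higher, and none in the other five lists, where 4.77% of all genes were at that level. SOCS3, the inhibitor that IL-6 is known to induce through STAT3, was named for that role with its value known. It had a mean of 74.9 CPM in vehicle and 78.2 CPM under IL-6 (log2 fold change 0.09, SE 0.09, adjusted p = 0.882). Over all genes edgeR passed 0 and DESeq2 passed 132 for IL-6.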

How the data were processed

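RNA-seq of 24 libraries (4 treatment groups in 6 batches of differentiation) was analysed from a table of raw read counts per gene. Per the study's methods, the authors ran FastQC, trimmed adapters with Trimmomatic (version 0.30 in the submitters' processing notes) and aligned reads to GRCh38.p14, and the counts were deposited without normalization. The aligner, counting tool and strandedness are not given in the sources used here. How the counting treated reads that fit several genes could change the counts of overlapping or similar genes.

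Entries with fewer than 10 counts in total were left out, leaving 29377 of 36468 (13161 are NewGene loci). edgeR 4.0.16 in R 4.3.3 was used (TMM, robust quasi-likelihood F test, group and batch in the model, all 24 libraries, Benjamini-Hochberg adjustment over all genes tested). Passing means an adjusted p under 0.05. Standard errors were derived from the fold change and F, and 95% intervals are unadjusted. Within-batch differences used log2 CPM with a prior count of 2. RPKM used GENCODE canonical transcript lengths, and coordinates and promoters came from RefSeq (GRCh38.p14).

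The batch labels pair libraries from 1 differentiation, and deviations of same-batch libraries correlated (median 0.593, lowest -0.0454). Members and lists were chosen with earlier results of these data known. Named genes were the 9 members, genes of each list that passed (at most 10 by size of change), and the 3 most like the member with the smallest p. Alternatives were DESeq2 1.42.0, its size factors, no filter, no batch term, the 12 libraries compared, and batches or vehicle libraries left out. The script was tested on simulated data. The depth, 33342682 to 39817784 counts per library, gave JAK3 and STAT5A the fewest counts.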

Additional observations from a re-analysis of the deposited data

Results flagged for a closer look

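Of 36 sets of 6 libraries (9 genes in 4 groups), 3 held a library far from the others by Dixon's test on log2 CPM. Chance gives such a library in about 1 of 20 sets. The ratios below are on that log2 scale, although the levels beside them are in CPM, and the test was not run on CPM. All 3 were libraries of batch 1. STAT3 in vehicle was at 550 CPM in batch 1, where the next highest batch was at 318 CPM (Dixon ratio 0.785). JAK2 in vehicle was at 8.89 CPM in batch 1, where the next lowest was at 15.6 CPM (ratio 0.632). JAK2 under IL-6 was at 11.2 CPM in batch 1, where the next lowest was at 15.1 CPM (ratio 0.629). The summed marker levels that also moved with batch 1 are given with the batch comparison, and their part was not tested. Without batch 1, the log2 fold change of STAT3 was -0.16 (adjusted p = 0.645) for IL-4 + IL-13 and -0.17 (adjusted p = 0.886) for IL-6, by edgeR.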

How the results depend on the processing

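The count of JAK and STAT genes that passed was 0 in each comparison with vehicle under each alternative. Between IL-4 + IL-13 and TGF-β it was 0 to 1 when batches or vehicle libraries were left out, the 1 being JAK1 without the vehicle libraries of batches 2 and 4. The batch test passed 7 to 9 of the 9 genes. Of 351 recomputed log2 fold changes of the 9 genes against vehicle, 24 changed sign, and their main values were at most 0.22 in size. The libraries that decide most are those of batch 2: without its vehicle library the negative values of JAK1, STAT3 and STAT5A under IL-6 moved towards 0. Leaving out batch 4 moved some values the other way. STAT5A under IL-6 was then at -0.50, and under IL-4 + IL-13 JAK1 was at -0.41 and STAT3 at -0.31. JAK3 and STAT5A rest on the fewest counts.

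With no replicate block, so that the pairing by batch was ignored, the genes passing against vehicle were 13 for IL-4 + IL-13 and 0 for TGF-β. They were 51 between IL-4 + IL-13 and TGF-β, 14 between IL-4 + IL-13 and IL-6, 0 between TGF-β and IL-6 and 44 for any treatment, and 0 for IL-6 as with the block. No call of a JAK or STAT gene changed with the block, and STAT6 targets passing went from 7 to 4. With DESeq2 the counts against vehicle were 574 for IL-4 + IL-13, 504 for TGF-β and 132 for IL-6, with 1572, 396 and 500 between treatments in the same order, and 1274 for any treatment. With no filter, 14 genes passed between TGF-β and IL-6. With only the 12 libraries compared, the counts were 27 for IL-4 + IL-13 and 0 for TGF-β against vehicle, 233 between IL-4 + IL-13 and IL-6 and 104 between TGF-β and IL-6. With batches or vehicle libraries left out, genes passing ranged from 76 to 234 for IL-4 + IL-13 against vehicle, 1 (without batch 3) to 133 for TGF-β against vehicle, 390 to 1676 between IL-4 + IL-13 and TGF-β, 66 to 250 between IL-4 + IL-13 and IL-6, 1 to 236 between TGF-β and IL-6 and 188 to 1046 for any treatment. The cause was not tested. Leaving out the vehicle libraries was an alternative chosen after the data were seen.

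Signs changed for STAT5B under IL-6 with no replicate block (-0.00067), DESeq2 (-0.0010) and its size factors (-0.0012). Leaving out libraries gave ranges across 0 for JAK1 (-0.12 to 0.26), JAK3 (-0.12 to 0.091), STAT3 (-0.12 to 0.0026) and STAT5A (-0.25 to 0.075) under TGF-β, for JAK2 (-0.15 to 0.041), JAK3 (-0.20 to 0.0038), STAT5A (-0.33 to 0.027) and STAT5B (-0.079 to 0.0079) under IL-4 + IL-13, and for JAK2 (-0.15 to 0.016), STAT5B (-0.039 to 0.070) and STAT6 (-0.13 to 0.017) under IL-6.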
